A study of Rattus norvegicus with 20 samples.

Results

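The CpG island landscape of the normal rat mammary gland was described from 4 arrays, the ones titled as normal gland among the 20 arrays of the series. The rats were female and of an F1 cross between Sprague-Dawley and Copenhagen. Per the labels, rats of the study were untreated or received whole-body gamma rays when 7 weeks old (4 Gy, with 0.5 Gy delivered each minute). The sources used here do not give which of these the normal glands had, nor the age at sampling. The other 16 arrays hold mammary carcinomas and were not analysed here. The labels number the glands from 1 to 4 without naming animals. Every p-value below therefore rests on the spread between these 4 samples, which may in part be technical. The tests also pool this spread, partly or fully, over the islands, chromosomes or classes fitted together. Classes are few and come from the same glands, so the exact size of a very small p-value for them carries little meaning.

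Each array carried a pair of DNA samples of one gland. Cy5 marked DNA captured by a protein domain that binds methylated CpG, and Cy3 marked input DNA that had not been enriched, in the same dye order on all arrays. The value of a probe was the log2 of Cy5 over Cy3 with the median of its array removed, so 0 is the level of a typical probe and a high value marks DNA rich in methylated CpG. An island was taken as a run of at least 3 probes starting at most 500 bases apart, with the mean of its probes as its value. Of 16211 runs of any size, 13474 qualified, of which 13132 lay on the 20 autosomes and 342 on chromosome X. The autosomal islands held 85196 probes. The median island had 6 probes and spanned 582 bases, at a median distance of 23.1 kb to the nearest other island. Positions refer to build rn4. The files name no genes and no annotation of that build was used here, so islands are given by position alone.

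CpG islands are short stretches of DNA dense in CpG that often overlap the starts of genes. In most tissues their CpG stay free of methyl groups, while a minority carries dense methylation, as at imprinted genes, at genes used only in the germline and on the inactive X chromosome of females. The methyl-binding pulldown responds to how many CpG of a fragment are methylated, so the ratio depends on CpG density as well as on methylation. A value between the extremes may come from a share of cells, from 1 of the 2 alleles or from part of the fragment, and these cannot be told apart. Mammary gland tissue mixes epithelium with fat, stroma and blood cells. Islands carry no gene names here, so no markers of cell type were used to check the tissue label.

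The only label that the values could be set against was sex. In the 4 glands the mean over the 342 X islands was 4.77, 3.08, 3.66 and 3.39 (log2), a mean of 3.72 ± 0.735 (SD, n = 4), while the mean over autosomal islands was 0.61, 0.42, 0.43 and 0.43. Of the X islands, 97.7%, 97.4%, 97.4% and 97.1% lay above a 4-fold ratio (a log2 of 2). X islands formed a single peak below the highest autosomal values. On a linear scale on which the low peak of autosomal islands is 0 and their high peak is 1 (linear position), the X mean was 0.558 ± 0.0157 (SD, n = 4) and the autosomal mean 0.127 ± 0.00739. Between 83.9% and 88.9% of X islands lay at a linear position from 0.2 to 0.8 in a gland, against between 6.36% and 8.22% of autosomal islands. Female cells carry 1 active and 1 inactive X, and islands of the inactive X are methylated.

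**Figure D1:**
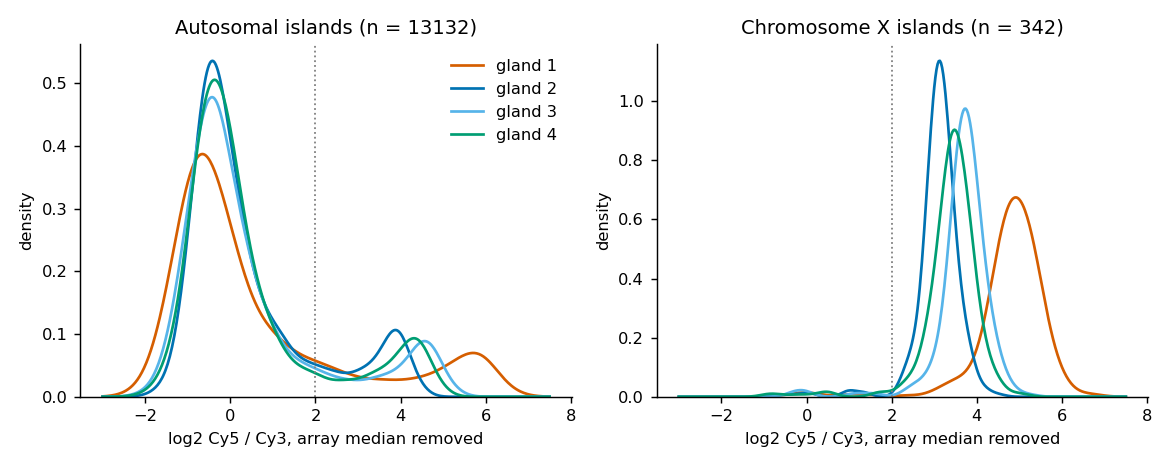
Density of island values (log2 Cy5 over Cy3, array median removed) for autosomal islands (left) and X islands (right), 1 line per gland, with the 4-fold threshold as a dotted line. Autosomal islands have a tall peak between -0.66 and -0.37 and a small one between 3.90 and 5.78, furthest right in gland 1, and X islands form 1 peak in each gland, with means from 3.08 to 4.77.

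Arrays differed in range more than in shape. The median raw Cy5 signal was 62, 81, 71 and 96 units in glands 1 to 4, and the median raw Cy3 signal 104, 115.5, 115 and 136. The share of probes with Cy3 well above background was 98.6% to 98.8%, and for Cy5 it was 69.1%, 89.5%, 76.9% and 89.5%. Gland 1 had the fewest probes with measurable Cy5. No probe was saturated. Glands 2 and 3 lay on one slide and were scanned on one day, and glands 1 and 4 lay on another slide scanned on another day. With 4 arrays, precision is limited by their number.

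Autosomal islands fell into a large low class and a small high one. The low peak stood at -0.66, -0.42, -0.43 and -0.37 in glands 1 to 4 (mean -0.47 ± 0.13, SD, n = 4). The high peak, taken among the top 15% of islands, stood at 5.78, 3.90, 4.58 and 4.35 (mean 4.65 ± 0.80, SD, n = 4). Gland 1 therefore had the lowest low peak and the highest high peak, and its peaks were 6.44 apart against 4.32 to 5.01 in the other glands. The thinnest point between the peaks lay at 3.86, 2.71, 2.98 and 2.56. The middle of the distribution was close in the 4 glands, with medians from -0.21 to -0.11, and the 75th percentile ran from 0.70 to 1.22.

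The share of autosomal islands above 4-fold (a log2 of 2) was 19.7%, 15.3%, 15.4% and 15.1%, a mean of 16.4% ± 2.23 (SD, n = 4). Glands 2 to 4 lay close together, and gland 1 stood apart. The 4-fold threshold fell at a linear position of 0.0618 in gland 1 and of 0.229, 0.141 and 0.165 in the others, so in gland 1 it took in islands nearer to the low peak. Above a linear position of 0.5 the share was 10.1%, 11.3%, 10.3% and 10.9%, a mean of 10.66% ± 0.533 (SD, n = 4), with gland 1 the lowest. Above the thinnest point of each array it was 12.8%, 12.2%, 12.2% and 13.5%. Most islands lay near the low peak, at a linear position under 0.2 for between 83.9% and 86.2% per gland, and the range from 0.2 to 0.8 held between 6.36% and 8.22%.

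Most islands had the same state in all glands. Of the 13132 autosomal islands, 80.0% were over 4-fold in no gland and 1822 (13.9%) in all 4. In between, 473 were over it in 1 gland, 148 in 2 and 180 in 3. Gland 1 alone accounted for 446 of the 473, and gland 4 was the missing one for 126 of the 180. On linear position with a boundary of 0.5, 88.0% were above it in no gland, 1244 (9.47%) in all 4 and 135 in 1 gland only, of which gland 1 had 5. Only 26 islands were above 0.5 in a gland and under 0.2 in another.

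Tested against the 4-fold threshold with limma's treat over all 13474 islands, 1686 autosomal islands exceeded it at an adjusted p under 0.05, 12.8% of the 13132 tested, and 14.9% of all islands did when X was included. All 1686 were over the threshold in each of the 4 glands. With another background correction (normexp) 824 autosomal islands passed. At an unadjusted p under 0.05 the autosomal count was 1878. A further 431 islands had a mean over 2 that did not pass the test. Of X islands, 327 of 342 passed (95.6%). The last island inside the test, chr16:18802885-18803894, had values of 3.83, 2.36, 2.59 and 2.80 (adjusted p = 0.04995), and the first outside, chr7:12959626-12960266, had 4.19, 2.34, 2.55 and 3.53. Called islands were shorter than all autosomal islands (medians of 439.5 and 582 bases) and nearer to another island (medians of 17.03 and 23.1 kb), while the mean input signal (log2 of Cy3, relative to the array median) was -0.10 for both.

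The islands with the highest mean were uniformly enriched along their probes. At chr12:35917893-35918566, with 7 probes, the value was 7.01, 4.57, 5.34 and 5.19 in glands 1 to 4, a mean of 5.53 ± 1.04 (SD, n = 4, adjusted p = 0.00206). At chr7:123979269-123979703, with 6 probes, it was 6.89, 4.59, 5.45 and 5.09. At chr10:92058976-92059339, also with 6 probes, it was 6.74, 4.72, 5.53 and 5.03. In each of these islands gland 1 was the highest and gland 2 the lowest, and the lowest probe mean was 4.72. Their linear positions of 1.84 to 1.88 lay beyond the high peak.

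The lowest values came from islands with weak Cy5 signal. At chr17:50436296-50437526 the value was -2.47, -1.73, -2.17 and -2.36, and Cy5 was well above background for 16.7% of its probe measurements. At chr5:49318186-49318399 it was -2.37, -1.70, -2.09 and -2.20, with 18.8% of Cy5 measurements above background. At chr8:71282607-71282807 it was -2.52, -1.31, -1.97 and -2.41, with 50.0%. Differences among such islands are therefore differences near the background of the enriched channel. Over all low islands (a mean of 0.5 or less) Cy5 was well above background for 74.3% of measurements, against 98.5% in islands with a mean over 2.

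Autosomes differed from each other in how many of their islands were enriched. Chromosome 20 stood highest, with 28.6%, 25.1%, 25.6% and 24.6% of its 395 islands over 4-fold in glands 1 to 4, and chromosome 12 followed, with 26.3%, 23.8%, 23.4% and 23.6% of 491. Chromosome 2 stood lowest, with 16.4%, 10.9%, 10.8% and 10.3% of 807. Chromosome 15 was close to it (15.8%, 10.8%, 10.8% and 11.1% of 361), and the order of these last ones is within the spread between glands. The mean log2 value of each chromosome was set against that of all autosomal islands of the same gland with limma, adjusted over 20 chromosomes. Of 20 autosomes, 18 differed (90%), 6 being higher (30%) and 12 lower (60%).

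The higher autosomes were 20, 12, 18, 7, 19 and 16. Chromosome 20 exceeded the autosomal mean by 0.52 (SE 0.03, adjusted p = 8.33e-07), chromosome 12 by 0.38 (SE 0.02, adjusted p = 6.31e-07) and chromosome 18 by 0.22 (SE 0.02, adjusted p = 5.48e-06). Chromosomes 7, 19 and 16 exceeded it by 0.22, 0.20 and 0.11. Chromosome 13 had the largest negative difference, -0.20 (SE 0.02, adjusted p = 4.00e-05). Chromosomes 1 and 3 did not pass the test, at 0.02 (adjusted p = 0.0816) and 0.01 (adjusted p = 0.373). Of the smaller differences, that of chromosome 5 (-0.04, adjusted p = 0.00717) did not pass without gland 3 (-0.04, adjusted p = 0.0944), and that of chromosome 9 (-0.10, adjusted p = 9.45e-05) did not pass in islands of at least 5 probes (-0.01, adjusted p = 0.194). That of chromosome 14 (-0.05, adjusted p = 0.00484) did not pass in islands of at least 5 probes, with the opposite sign (0.0015, adjusted p = 0.891). The same probes served on all 4 arrays, so these tests ask whether a difference repeats from gland to gland, and small differences of fixed sets of islands pass easily.

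The differences lay in the share of high islands more than in the typical island. The median island stood at 0.09 on chromosome 20 and -0.02 on chromosome 12 but between -0.23 and -0.07 on the others, while the upper quartile was 2.12 and 1.77 on those 2 and between 0.48 and 1.49 elsewhere. On linear position over 0.5, chromosome 20 had 20.7% ± 1.04 of its islands (SD, n = 4), chromosome 12 18.1% ± 0.926 and chromosome 13 5.86% ± 0.424, which was the lowest share on that scale. Chromosome 2 then stood at 8.12% ± 0.295. Of the islands of chromosome 20, 22.5% were called over 4-fold, and of those of chromosome 12, 21.8%, against 8.47% on chromosome 13. The median distance between islands was 21.1 kb on chromosome 20, 18.9 kb on chromosome 12 and 48.5 kb on chromosome 13. Other closely spaced autosomes varied: 11.7% were called on chromosome 10 (16.5 kb) and 13.9% on chromosome 1 (17.3 kb). On chromosomes 7 (16.1 kb) and 19 (15.4 kb) it was 17.3% and 16.3%. A relation between distance and share over chromosomes was not tested.

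**Figure D2:**
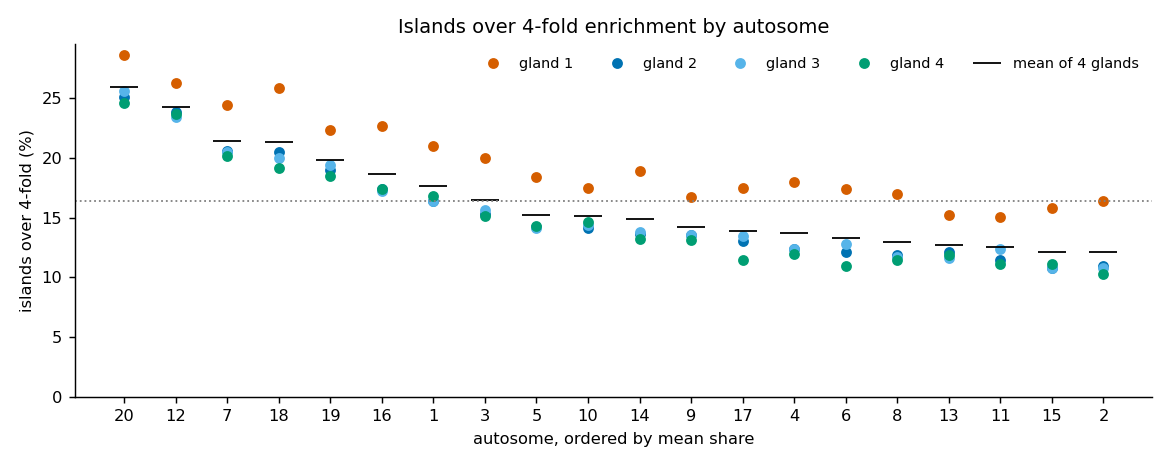
Share of autosomal islands over 4-fold (percent) for each autosome, ordered by the mean of the 4 glands (bar), with 1 point per gland and the mean of all autosomes as a dotted line. Gland 1 is highest on every chromosome, and chromosomes 20 and 12 lead in all 4 glands, at means of 25.95% and 24.3%.

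Within chromosomes the called islands were unevenly placed. Of 1973 windows of 1 megabase that held an island, 774 held a called one, and 71 windows with 5 or more called islands held 503 of the 1686. Those 71 windows, picked for their called islands, held 1733 of the 13132 autosomal islands. Islands themselves were unevenly spread, with a median of 5 and at most 76 in a window. The window with the most called islands, 10 to 11 Mb of chromosome 7, held 26 among 76 islands (34.2%), and its mean was 2.04, 1.31, 1.52 and 1.54 in glands 1 to 4. It was also the window with the most islands of all. Its islands ranged from -1.60 to 5.34 with a median of 0.38, so enriched and low islands lay side by side.

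The first megabase of chromosome 18 held 14 called among 18 islands (77.8%), with a mean of 4.43, 3.01, 3.51 and 3.23. Its median island stood at 4.30, so here most islands were high. Between 18 and 19 Mb of chromosome 16, 14 of 48 islands were called (29.2%), with a mean of 1.40, 0.97, 1.01 and 1.18.

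Counted along the chromosome, 1053 of the 1686 called islands (62.5%) had no called neighbour on either side. A further 247 (14.7%) lay in 71 runs of 3 or more adjacent called islands. Of all autosomal islands 12.8% were called, so an isolated called island is common in any order. The counts were not set against another order and do not by themselves show scatter or clustering. The longest run, 12 islands over 164 kb of chromosome 18 (chr18:29663289-29827016), had a mean of 5.25, 3.78, 4.29 and 4.02. Runs of 6 lay at chr18:226714-283258, chr10:20939773-21461768 and chr14:7229397-8204058, over 56.5, 522 and 975 kb. The run on chromosome 18 near its start had a mean of 5.13, 3.39, 3.98 and 3.69, and those on chromosomes 10 and 14 had 5.67, 3.97, 4.71 and 4.22 and 5.45, 3.68, 4.48 and 3.95. These were the longest runs and were picked for their length.

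Islands of 5 to 6 probes were enriched most often, and islands of 10 to 14 probes least often. Over 4-fold were 22.5%, 18.8%, 18.9% and 18.7% of the 4119 islands of 5 to 6 probes, 3.37 percentage points above all autosomal islands (SE 0.212, adjusted p = 0.00012). Of the 1413 islands of 10 to 14 probes, 14.3%, 8.49%, 8.56% and 8.14% were over it, -6.49 points from all islands (SE 0.334, adjusted p = 9.74e-05). The 4070 shortest islands, of 3 to 4 probes, had 20.6%, 15.9%, 16.2% and 15.6%, and the 3105 of 7 to 9 probes had 17.2%, 13.5%, 13.3% and 13.4%. In glands 2 to 4 these groups did not overlap with each other, and gland 1 had the highest share in every class. Called islands made up 16.4% of those with 5 to 6 probes and 6.86% of those with 10 to 14.

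The 425 islands of 15 or more probes had a median of 1928 bases and were over 4-fold in 19.8%, 11.8%, 11.8% and 10.6% of cases. The share of this class minus that of the shortest class was -3.59 points (SE 0.768, adjusted p = 0.0107), ranging from -0.87 in gland 1 to -4.96 in gland 4. That contrast did not pass when only the 3 probes nearest the middle of each island were used (-1.11 points, adjusted p = 0.311) or with a threshold of 2-fold (-1.01 points, adjusted p = 0.674), and it was negative under each. The difference of the 10 to 14 probe class passed under both and lay between -6.94 and -4.84 points over the alternatives run. With the glands of slide B alone the 5 to 6 probe class did not pass (3.23 points, adjusted p = 0.135). On linear position over 0.5 the 5 classes from short to long stood at 10.5%, 13.9%, 9.39%, 5.75% and 6.88%. The mean log2 value was nearly the same in the longest class (0.504) and the shortest (0.498). A mean from 0.5 to 2 was found for 22.1% of the longest islands and 15.9% of the shortest. The lower share of the longest class thus concerns islands over the threshold and not the average value. Input signal and probe length were close in all classes, from -0.13 to -0.08 (log2 Cy3) and from 47.5 to 47.7 bases.

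Islands 2 to 5 kb from another island were enriched more often than any other distance class. Over 4-fold were 33.4%, 25.4%, 26.3% and 25.7% of these 1053 islands, 11.3 points above all autosomal islands (SE 0.696, adjusted p = 5.17e-05). The next class, 5 to 20 kb, held 3022 islands with 21.8%, 18.4%, 18.4% and 18.7%, 2.96 points above (SE 0.408, adjusted p = 0.00113), which at a threshold of 2-fold became 1.41 points (adjusted p = 0.078). The class of 20 to 100 kb had 16.1%, 13.4%, 13.4% and 13.3% of 4822 islands, and that of 100 kb or more had 16.4%, 12.6%, 12.3% and 11.5% of 2195, -3.15 points from all islands (SE 0.36, adjusted p = 0.000657). With the glands of slide B alone the 3 classes from 5 kb on did not pass (adjusted p = 0.16 for each). The 2 to 5 kb class was above all islands of the same chromosome on 18 of 20 autosomes. It exceeded all islands by 6.56 to 13.9 points over all alternatives run.

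From 2 to 5 kb on, the mean share over 4-fold fell with distance. The order of the farthest classes depended on the threshold. At 2-fold the difference was -4.28 points at 20 to 100 kb and -1.81 at 100 kb or more, and their mean log2 values were 0.32 and 0.42. The 2040 islands under 2 kb from another did not follow the order of the farther classes. They were over 4-fold in 21.5%, 13.0%, 13.4% and 12.2% of cases, -1.34 points from all islands (SE 0.866, adjusted p = 0.178). Without gland 1 the difference was -2.40 points (adjusted p = 1.76e-07). The median distance in this class was 0.757 kb, and since islands were bounded by probe spacing alone, a pair this close need not be separate CpG islands. The farthest class minus the nearest was -1.81 points (SE 0.885, adjusted p = 0.110), and it turned with the setting: it was -4.61 points at a threshold of 2-fold (adjusted p = 2.75e-05) and 2.22 points on linear position over 0.5 (adjusted p = 6.03e-11). Without gland 1 it was -0.73 points (adjusted p = 0.00572). The higher share at 2 to 5 kb was found on each of these scales.

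Neighbouring islands shared their state more often than islands of the same distance class in general. When an island was over 4-fold, its nearest neighbour under 2 kb away was over 4-fold in 51.03%, 41.0%, 42.1% and 39.5% of cases, against a mean of 15.0% for the neighbours of all islands at that distance. The difference was 28.4 points (SE 0.331, adjusted p = 6.55e-21). At 2 to 5 kb it was 12.3 points (39.8% against 27.5%), and at 5 to 20 kb 11.6 points (31.8% against 20.2%). At 20 to 100 kb it was 5.90 points (20.7% against 14.8%), and at 100 kb or more 6.45 points (19.8% against 13.4%). All 5 differences passed the test, with adjusted p of 1.69e-11 or less, and they passed under all alternatives run. They had the same SE, since the fit pooled the spread of the classes, and p-values this small rest on that pooling. Among called islands with a neighbour under 2 kb away, 73 of 181 (40.3%) had a called neighbour, and 41 of 220 (18.6%) had one at 100 kb or more. As a description, with pairs sharing arrays and some islands in several pairs, the correlation between the values of an island and its neighbour was 0.44 under 2 kb, 0.18 and 0.19 at 2 to 5 and 5 to 20 kb, and 0.11 in both farther classes.

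**Figure D3:**
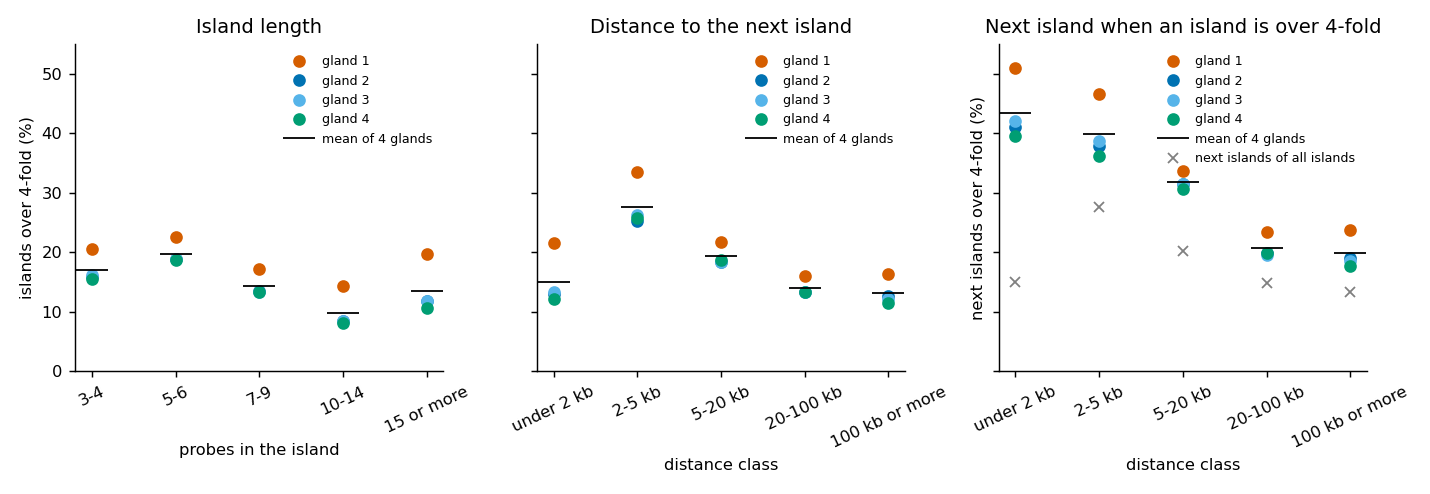
Share of autosomal islands over 4-fold (percent) by number of probes (left) and by distance to the nearest island (middle), and share of nearest neighbours over 4-fold when the island itself is (right), with 1 point per gland, bars for the mean of 4 glands and crosses for the neighbours of all islands. The 2 to 5 kb class stands highest in the middle panel, at a mean of 27.7%, and on the right the gap between bar and cross is widest under 2 kb, at 43.4% against 15.0%.

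Along an island, values were lower at the edges than in the middle in all 3 classes of mean value. Over the 6809 autosomal islands of 6 or more probes, the outer probes (nearest the ends) minus the inner ones was -0.28, -0.23, -0.29 and -0.34 in the 4916 low islands (mean of 0.5 or less; SE 0.04, adjusted p = 9.65e-05). In the 936 islands with a mean from 0.5 to 2 it was -0.32, -0.10, -0.16 and -0.16 (SE 0.04, adjusted p = 0.000871). In the 957 enriched islands, with a mean over 2, it was -0.38, -0.18, -0.25 and -0.26 (SE 0.04, adjusted p = 9.65e-05). Each of the 4 glands had the same sign in every class. The SE was pooled over the 3 classes.

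These differences were small beside the distance between the peaks, and properties of the probes moved with them. In low islands the outer probes were longer than the inner ones (means of 49.2 and 46.5 bases), had less input signal (-0.38 and 0.08, log2 Cy3) and had Cy5 well above background less often (65.3% and 82.1% of measurements). In enriched islands the corresponding lengths were 48.5 and 46.5 bases and Cy5 was above background for 98.0% and 99.8%. Over all probes of autosomal islands, those of 45 bases lay 0.16 above the mean of their island and those of 51 to 55 bases -0.41 from it. With probes of 45 bases alone, an alternative added after the data were seen, the difference was -0.12 in low islands (adjusted p = 0.00852), -0.03 in middle ones (adjusted p = 0.396) and -0.21 in enriched ones (adjusted p = 0.000309). With normexp it was 0.03 in low islands (adjusted p = 0.239), the opposite sign. The part of input signal in the edge difference was not tested.

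In islands of at least 1000 bases the lowest values were close to the edge. Within 100 bases of the nearer edge, probes of the 179 enriched islands of this size stood at -0.25 relative to their island, and at 100 to 200 bases at 0.02. In the 1463 low islands of this size they stood at -0.20 within 100 bases and at -0.02 from 100 to 200. In both classes the outermost 100 bases were thus the lowest.

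**Figure D4:**
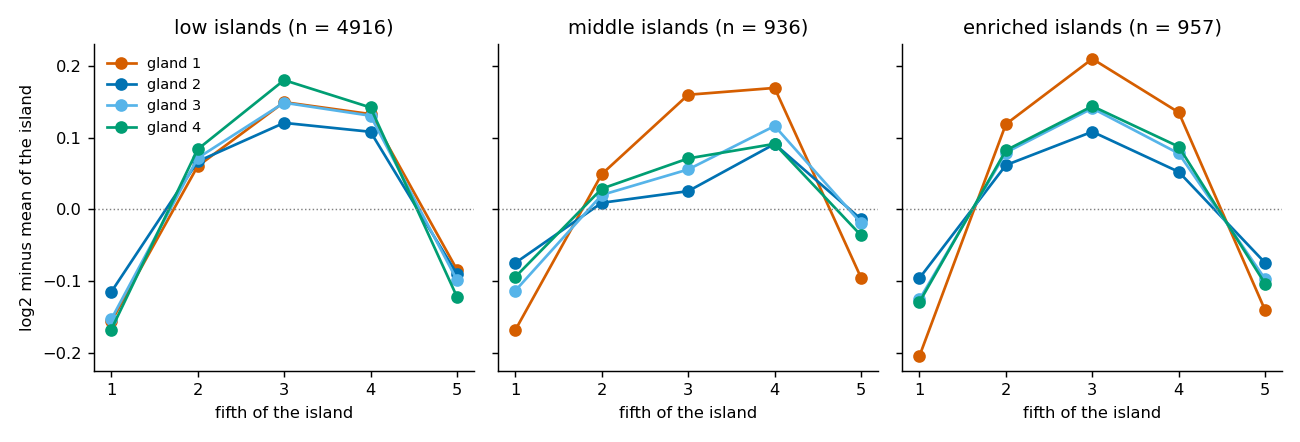
Mean probe value minus the mean of its island (log2) over 5 equal parts of the island in probe order, for low, middle and enriched islands of 6 or more probes, with 1 line per gland. The first and last parts lie below the island mean in all 4 glands and each class, and the middle part of enriched islands lies 0.15 above it on average.

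Most islands were of 1 state along their length. The SD between the probes of an island had a median of 0.84 in low islands, 0.78 in middle ones and 0.47 in enriched ones, although enriched islands differed most between glands. Islands that held at least 2 probes with a mean over the 4 glands of 0.5 or less and at least 2 with a mean over 2 numbered 359 of 6809 (5.27%). They made up 213 of the 936 islands of the middle class (22.8%), 129 of the 4916 low ones (2.62%) and 17 of the 957 enriched ones (1.78%). An island with both low and high probes tends to have a middle mean, so this contrast follows in part from the definitions. In 71 of the 6809 islands (1.04%) the mean of one side of the probe order exceeded that of the other by over 2 (log2). Sides were split at the middle, and the direction was the same in each of the 4 glands. By class, these were 20 low islands (0.41%), 30 middle ones (3.21%) and 21 enriched ones (2.19%).

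Among called islands, the one with the most probes held both states. At chr12:46721844-46727464, with 47 probes over 5621 bases, the value was 4.56, 3.00, 3.48 and 3.44, a mean of 3.62 ± 0.66 (SD, n = 4, adjusted p = 0.00487). With normexp it did not pass (2.36, adjusted p = 0.434). Its first 12 probes, up to 1191 bases from the start, had means of at most 1.23. The next probe, at 1525 bases, stood at 4.96, 3.09, 3.28 and 4.24 in glands 1 to 4, and all 35 probes from there on had means over 2. The change fell between the same 2 probes in all 4 glands.

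Another long called island was high from end to end. At chr9:32921179-32923334 all 25 probes were over 4-fold, with means from 4.56 to 5.23, and the island stood at 6.01, 4.16, 4.94 and 4.47. At chr19:35083781-35086696, with 23 probes, the value was 4.69, 3.00, 3.38 and 3.39 (adjusted p = 0.00726), which did not pass with normexp (2.31, adjusted p = 0.609). Its first 12 probes had means from 3.87 to 5.19. Then 3 probes in its interior fell to 0.36, 0.17 and 0.08, from 1610 to 1960 bases after the start, and the last 2 probes stood at 4.39 and 4.40. The low stretch was thus flanked by high probes on both sides.

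The widest spread between probes occurred in islands whose mean said little about them. At chr9:63386972-63390228, with 27 probes, the value was 3.43, 2.17, 2.53 and 2.74 (mean 2.72 ± 0.53, SD, n = 4), which did not pass the test (adjusted p = 0.0584). It did pass without gland 1 (adjusted p = 0.0369), without gland 2 (adjusted p = 0.036) and under 5 other alternatives, among them the median of its probes (4.16, adjusted p = 0.0026). The 16 probes up to 1147 bases from its start had means from 4.05 to 5.30, and those at 2016 and 2086 bases stood at -1.56 and -1.90. At chr3:159392719-159394794, with 17 probes, the value was 0.66, 0.21, 0.14 and 0.47, and its last 5 probes alone were over 4-fold, with means from 3.00 to 5.43. At chr3:6396612-6398058, with 10 probes and values of 0.17, 0.42, 0.26 and 0.35, only 2 probes starting 5 bases apart, at 400 and 405 bases, were high (4.73 and 5.00). That pair overlaps nearly whole, so it amounts to 1 measured place.

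**Figure D5:**
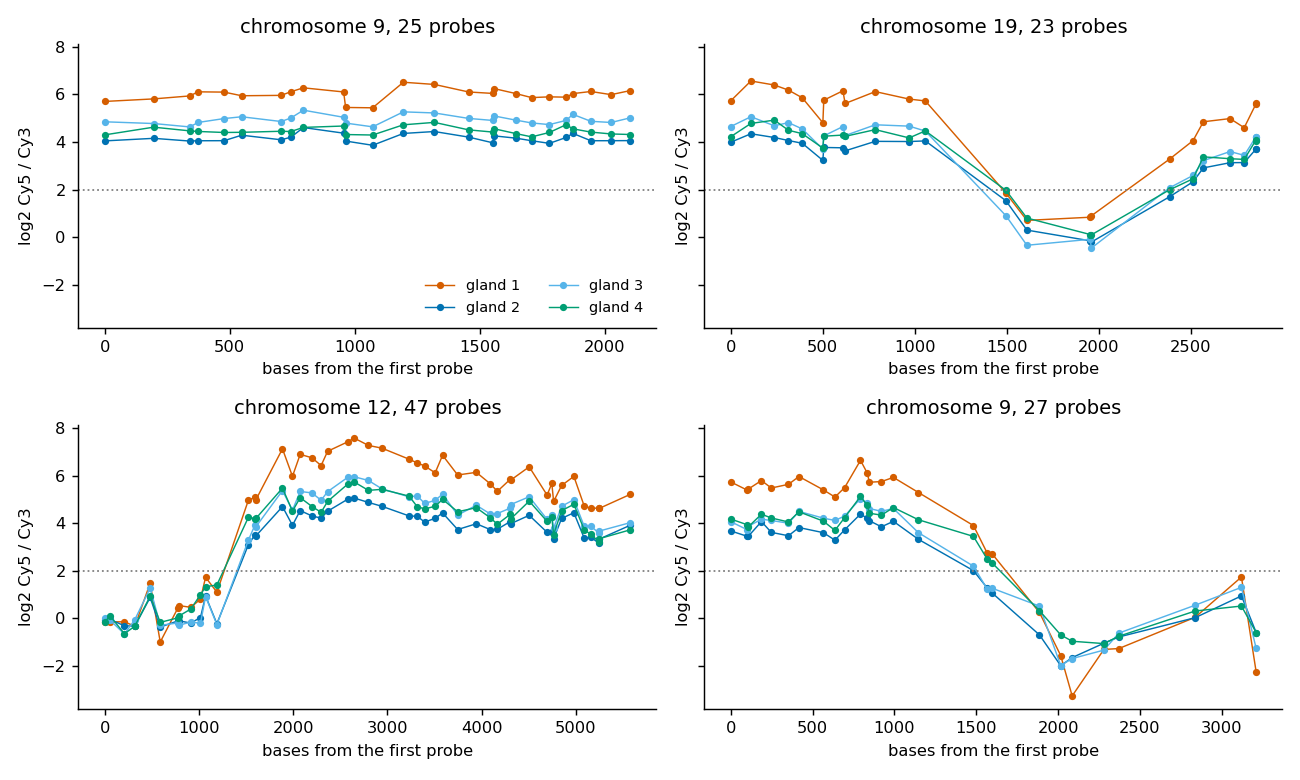
Probe values (log2 Cy5 over Cy3) along 4 islands against the distance from the first probe in bases, with 1 line per gland and the 4-fold threshold as a dotted line. The island of 25 probes stays high throughout, the one of 47 probes rises between 1191 and 1525 bases, the one of 23 probes has a low stretch from 1610 to 1960 bases, and the one of 27 probes falls after 1147 bases, in all 4 glands.

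Among the 3 islands with the most probes of all, those on chromosomes 10 and 19 held mostly low probes. At chr10:109652173-109658537, with 63 probes over 6365 bases, the value was -0.29, -0.48, -0.15 and -0.55. Of its probes, 45 had a mean of 0.5 or less and 4 a mean over 2. Cy5 was well above background for 50.0% of its measurements. At chr19:15747712-15753035, with 48 probes over 5324 bases, the value was 0.81, 0.51, 0.25 and 0.47. Its mean of 0.51 put it in the middle class, with 29 probes at 0.5 or less and 8 over 2. The other one was the called island of 47 probes on chromosome 12, with 35 probes over 2.

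The 4 glands ordered their islands in a similar way. The rank correlation (Spearman) over autosomal islands ran from 0.904 for glands 1 and 4 to 0.951 for glands 2 and 3. Its mean was 0.930, lower than that of the Pearson correlation. Over autosomal islands the Pearson correlation of log2 values, a description over regions that share probes and are not independent, was 0.985 for glands 2 and 3, 0.982 for 1 and 3, 0.978 for 1 and 2, 0.972 for 2 and 4, 0.969 for 3 and 4, and 0.963 for 1 and 4. Its mean over the 6 pairs was 0.975. On linear position it ran from 0.978 to 0.991, and over single probes of the log2 ratio from 0.934 to 0.958. Glands 2 and 3 share a slide and correlated best, but glands 1 and 4 share the other and correlated least, so the mean was 0.974 within slides and 0.975 between them.

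Within classes of mean value the correlations were lower. The classes were cut by the mean of the same glands, and a narrower range by itself lowers a correlation. The lower values therefore cannot be read as poorer agreement. Within the 9121 low islands the correlation ran from 0.728 to 0.846, within the 1894 middle ones from 0.257 to 0.808, and within the 2117 enriched ones from 0.873 to 0.978. In the middle class the pairs that included gland 4 had the lowest values, 0.257, 0.357 and 0.461. The median SD over glands was 0.21 in low islands, 0.36 in middle and 0.77 in enriched ones on the log2 scale, on which gland 1 had the widest range. On linear position it was 0.0055, 0.0262 and 0.0761.

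Of the islands over 4-fold in gland 2, 97.3% were so in gland 3, and of those in gland 3, 96.8% in gland 2. Of those in gland 1, between 75.6% and 77.7% were over it in each other gland, while between 98.9% and 99.5% of those in the other glands were over it in gland 1. The additional islands of gland 1 thus came on top of a shared set. On linear position over 0.5, the shares ran from 88.4% to 99.3% in both directions of the 6 pairs.

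The islands with the largest SD over glands had 1 gland on the other side of the threshold. At chr16:71867801-71868217, with 4 probes, the value was 3.73 in gland 1 and 0.68, 0.08 and 0.15 in glands 2 to 4 (SD 1.73). Cy5 was well above background for 62.5% of its measurements. This island did not remain at that extent when only probes with input well above background on all 4 arrays were kept. At chr17:107005-107398, with 5 probes, it was 4.29, 2.86 and 3.30 in glands 1 to 3 and 0.28 in gland 4. At chr10:83130434-83130891, with 4 probes, it was 5.15, 3.32 and 3.92 in glands 1 to 3 and 1.10 in gland 4. Gland 4 was thus low where the other 3 were high at both latter places, where all Cy5 measurements were above background. These were the 3 islands of largest SD and were picked for it, so no test is given.

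No island passed a test between the slides, which with 2 glands on each could find only large differences. A lack of calls therefore does not show that the slides were alike. With limma, 0 of 13474 islands (0%) differed between the glands of the 2 slides at an adjusted p under 0.05, where 409 (3.04%) had an unadjusted p under 0.05, and the median absolute difference was 0.20. Without gland 4, so that gland 1 alone stood for its slide and was assumed to vary like the others, 2520 islands (18.7%) were called. With 2 glands on each slide, scanned on different days, slide, scan day and the glands themselves cannot be told apart.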

How the data were processed

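Methylation over CpG islands was measured in 4 normal mammary glands, grouped by their titles. Per the file headers, the deposited Cy5 and Cy3 processed signals are intensities from Agilent Feature Extraction 10.7.3.1, background-subtracted and scaled with a linear dye factor, with probe positions of build rn4; the lowess factor was 0. The deposited log ratio is a log10 value. The authors' value table holds log2 ratios of 91897 of the 93024 probes, equal to the rescaled scanner log ratio to within 7.94e-07 and not centred (column medians of -0.48, -0.17, -0.27 and -0.08). In it 4 columns were used; the 16 of carcinomas were not.

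Here log2 of Cy5 over Cy3 was taken per probe without 1565 control spots and 5 values marked as outliers, and the array median was removed. No loess or quantile step was applied. Probes on unplaced sequence (1127) were left out of islands. Islands, the 4-fold threshold and the classes are defined with the results. Linear position was the unlogged ratio scaled between the density peaks of all autosomal islands and of the highest 15%. Tests were limma 3.58.1 fits in R 4.3.3 with glands as replicates: treat against a log2 of 2 over 13474 islands, moderated one-sample tests for class and chromosome differences within a gland, and a comparison of slides, each with Benjamini-Hochberg adjustment. The fits were tested on simulated data. Values were computed in Python 3.11.15 (scipy 1.17.1, with numpy 2.4.6 and pandas 2.3.3).

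Islands named were, among autosomal ones, the 3 with the highest mean, lowest mean, largest SD over glands, most probes, most probes among called ones, and widest spread between 10 or more probes, plus the 3 windows of 1 megabase with the most called islands. The glands, classes, tests and this rule were chosen with earlier results of these data known. Runs of adjacent called islands and the pair of islands at the edge of the test were named in addition, after their values were seen. Alternatives covered the threshold, scale, centring, normalization, background correction, source of values, dim and marked spots, island definition, and each gland and slide. Outer probes of an island were those at a rank position, scaled from 0 at one end to 1 at the other, more than 1/3 from the centre, and inner probes those less than 1/6 from it. Normexp used median signals with an offset of 50.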

Additional observations from a re-analysis of the deposited data

Results flagged for a closer look

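Of 61 sets of 4 gland values, 25 had 1 gland far from the other 3 by Dixon's gap criterion, which marks about 5% of sets by chance (3.1 of 61), and the gland was gland 1 in all 25. The sets are not independent, since they come from the same 4 arrays. Over all autosomal islands, the share over 4-fold was 19.7% in gland 1 and 15.1% to 15.4% in the others. By chromosome, the outlying shares of gland 1 were 20.97% on chromosome 1, 16.4% on 2, 19.96% on 3, 17.97% on 4, 18.4% on 5, 24.4% on 7, 16.99% on 8, 16.7% on 9, 17.5% on 10, 26.3% on 12, 15.3% on 13, 18.9% on 14, 15.8% on 15 and 22.7% on 16. By length they were 20.6% for 3 to 4 probes, 22.5% for 5 to 6, 17.2% for 7 to 9, 14.3% for 10 to 14 and 19.8% for 15 or more. By distance they were 21.5% under 2 kb, 33.4% at 2 to 5 kb, 21.8% at 5 to 20 kb and 16.1% at 20 to 100 kb, and the share among neighbours of enriched islands at 20 to 100 kb was 23.5%. The share above a linear position of 0.5 was not among the sets marked. The islands named for their large SD over glands were not among the sets, and none of the other named islands was marked. In gland 1 Cy5 was well above background for 69.1% of probes, the lowest of the 4 arrays, and its part in these shares was not tested.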

How the results depend on the processing

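No paired analysis was possible because only 1 group of samples was used, so no replicate numbers are shared between groups. Of 163 recomputed values of the main results, 138 kept direction, call or size. Some of these could not change. The threshold does not enter the chromosome, edge, correlation and slide results, and centring leaves chromosome differences and correlations as they were. The count is therefore no measure of robustness. The values that changed follow. The mean share of enriched islands was 23.3% at a log2 threshold of 1, 12.7% at 3, 10.66% on linear position over 0.5, 18.9% with centring on the low peak and 11.0% with normexp, which called 824 islands. Longest minus shortest islands stayed negative without passing at a threshold of 1 (-1.01 points), with centring on the low peak (-2.23), with the 3 middle probes (-1.11) and in slide B alone (-2.92). Farthest minus nearest islands passed at a threshold of 1 (-4.61 points), with centring on the low peak (-3.09), quantile normalization (-1.76), input above background (-2.21), at least 5 probes (-5.82), starts at most 1000 bases apart (-10.2), the median of probes (-2.12) and slide A alone (-0.77), and was positive at a threshold of 3 (0.91), on linear position (2.22) and with normexp (1.12). Without single glands it ran from -2.28 to -0.73 points, and the slide comparison from 0 to 2520 islands. The mean correlation was 0.985 in slide A alone and 0.963 in slide B alone.

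Other differences changed sign. For islands under 2 kb apart it was 2.80 points at a threshold of 1, 0.47 with centring on the low peak, 2.34 with at least 5 probes and 6.04 with starts at most 1000 bases apart. For 15 or more probes it was 0.56 points at a threshold of 1, and for 3 to 4 probes -0.20 on linear position and -0.19 with normexp. The edge difference of low islands was 0.0326 with normexp. Chromosome 3 stood at -0.0089 (normexp), -0.0129 (at least 5 probes) and -0.0045 (starts at most 1000 bases apart), and with at least 5 probes chromosome 1 at -0.0060 and chromosome 14 at 0.0015. The causes were not tested. In low islands Cy5 was well above background for 74.3% of measurements, and its part in these changes was not tested.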

Other observations

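Probes outside the islands gave values of the same kind. Single probes with no neighbour within reach (1127 runs) were over 4-fold in 21.3%, 16.2%, 17.1% and 15.4% of cases in glands 1 to 4, and runs of 2 probes (1540) in 17.8%, 12.5%, 12.7% and 12.4%. Probes of autosomal islands, taken singly, were over it in 22.3%, 16.4%, 17.3% and 16.3% of cases. The 493 probes on sequence assigned to no chromosome stood higher, at 33.3%, 24.7%, 25.96% and 24.3%, and the 634 on sequence assigned to a chromosome without a position at 26.7%, 22.2%, 21.9% and 23.5%. No test was run on these.

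Islands in the outer 5 Mb of the covered part of autosomes were more often over 4-fold than the rest. In the first 5 Mb the share was 24.2%, 19.8%, 19.3% and 17.5% of 566 islands, in the last 5 Mb 24.4%, 18.8%, 19.1% and 17.6% of 873, and elsewhere 19.1%, 14.8%, 14.9% and 14.8% of 11693. The pattern was uneven: the last 5 Mb lay above the whole chromosome on 12 of 20 autosomes and the first 5 Mb on 7 of 20. The first 5 Mb of chromosome 18 had a mean share of 44.5% over 41 islands, against 21.4% for the whole chromosome, and the first 5 Mb of chromosome 12 had 34.8% over 41 islands, against 24.3%. Islands near the ends were also closer together, with a median distance of 15.8 and 16.5 kb against 24.2 kb elsewhere. These zones were looked at after the values were known and were not tested.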
